A study of Mus musculus with 6 samples.

Results

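Histone chaperones are the proteins that carry histones between synthesis and DNA, and 8 mouse genes of this machinery were followed here: Chaf1a, Chaf1b, Asf1a, Asf1b, Nasp, Hat1 and Hira, and Slbp, whose product binds histone mRNA. They were chosen by name, as the rows of the deposited count table that carry these symbols, and all 8 were found among its 24062 genes. All 8 passed the filter on low counts, a sum of at least 10 over the 6 libraries, which left 16904 genes.

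RNA was sequenced from whole retinae of C57BL/6 mice (C57BL/6N in the study's methods) at postnatal day 21 (P21), with 1 library per retina and 3 retinae of each of 2 genotypes. Both genotypes carried Chx10-Cre, conditional (lox/lox) Rb alleles and a germline deletion of p107 (p107 -/-, gene Rbl1), and retinae with these alleles alone are called Rb1/p107 DKO. The Rb1/p107/Hells TKO retinae also carried conditional (lox/lox) Hells alleles, in which Cre removes exon 12. By genotype every retina therefore lacked p107, and the only difference in genotype between the groups was the Hells alleles. Chx10-Cre is active in retinal progenitor cells in only some of them (a mosaic), so cells that never recombined remain in each retina, and mice of both sexes were used. The counts on genes summed to 12083082, 12888233 and 10343907 in TKO replicates 1, 2 and 3. The DKO totals were 12635061, 13455972 and 14203098 for replicates 1, 2 and 3. The label of each library carries a number of its own, which the sources used here do not explain, and nothing states which animal or litter a retina came from, so p-values measure the spread between these libraries.

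Newly made histones H3 and H4 are bound by NASP, acetylated by HAT1 and handed to ASF1, of which mammals have the paralogs ASF1A and ASF1B. ASF1 passes them to one of a pair of deposition routes. The CAF-1 complex, made of CHAF1A, CHAF1B and RBBP4, places them on newly copied DNA behind the replication fork, while the HIRA complex places the replacement variant of H3 on DNA outside replication. Replication-dependent histone mRNAs end in a stem-loop in place of a poly(A) tail, and SLBP binds this stem-loop for processing, export and translation. Most neurons and photoreceptors of a normal retina have left the cell cycle by P21, and Rb family proteins repress E2F target genes, many of which serve DNA replication. HELLS is a chromatin remodeler of the SNF2 family.

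Of the 8 genes, 5 were lower in TKO than in DKO retinae and none was higher. Both large subunits of CAF-1, Asf1b, Nasp and Slbp fell 2.21-fold to 5.29-fold. Asf1a, the acetyltransferase gene Hat1 and Hira did not pass the test, and their fitted log2 fold changes (TKO minus DKO) were -0.24, -0.36 and -0.11. A gene was called where the adjusted p of edgeR's quasi-likelihood test was at most 0.05, the absolute log2 fold change at least 1 and the mean normalized count at least 10. Of all 16904 genes tested, 4.38% were called lower by this rule and 1.97% higher (741 and 333 genes). This background depended on single retinae too. It was 491 lower and 209 higher when TKO replicate 1 was left out, 312 and 164 for TKO replicate 2, 360 and 140 for DKO replicate 1, and 350 and 121 for DKO replicate 2. Leaving out TKO replicate 3 raised it to 1024 and 476, and leaving out DKO replicate 3 to 830 and 450.

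Hells itself was at 60.8, 68.4 and 83.4 normalized counts in the TKO libraries (replicates 1, 2 and 3) and at 678, 523 and 395 in the DKO libraries. Here a normalized count is the raw count after library sizes were equalised with TMM factors. Each library followed its label, with a log2 fold change of -2.91 (SE 0.225, adjusted p = 0.00359, edgeR). Rb1 transcript was at 748 ± 66.0 in TKO and 591 ± 23.5 in DKO libraries (SD, n = 3), a log2 fold change of 0.34 (adjusted p = 0.0388, edgeR). For Rbl1 the means were 20.3 ± 7.02 and 18.6 ± 4.87 (adjusted p = 0.839, edgeR). Both genotypes carried the same Rb and p107 alleles, so Rb1 and Rbl1 are no check of the labels. The Rb1 groups nevertheless lay apart, at 814, 746 and 682 in TKO and 617, 583 and 572 in DKO replicates 1, 2 and 3. The cause of this difference was not tested. Counts on Hells, like those on Rb1, include exons outside the targeted part and transcripts of cells that never recombined. They are therefore not a direct measure of the deletion.

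In the GENCODE annotation of GRCm38, Chaf1a lies at chr17:56040439-56072289 on the plus strand and Chaf1b at chr16:93883901-93906115 on the plus strand. Asf1a lies at chr10:53596757-53609225 and Asf1b at chr8:83955507-83970197, both on the plus strand. Nasp lies at chr4:116601052-116627941 on the minus strand and Hat1 at chr2:71388958-71441622 on the plus strand. Slbp lies at chr5:33634952-33652574 on the minus strand and Hira at chr16:18877037-18970309 on the plus strand. The 8 genes thus lie on 7 chromosomes, and Chaf1b and Hira, which share one, are far apart on it. Exons of Chaf1a share 4648 bases with exons of Ubxn6 on the opposite strand, and those of Asf1a share 1748 bases with Mcm9, also on the opposite strand. The strand setting of the counting is not given in the sources used here, so reads on shared bases are of uncertain origin. Ubxn6 had 1089 normalized counts across TKO libraries, against 947 across DKO libraries (log2 fold change 0.20, adjusted p = 0.235, edgeR), and Mcm9 had 181 and 203 (log2 fold change -0.16, adjusted p = 0.392, edgeR). Hira shares 2778 exon bases with Gm28539 on its own strand and Slbp shares 474 with Gm10459 on the other, neither of which was among the genes tested. Nasp has an annotated processed pseudogene, Nasp-ps1, and its reads could be split between copies.

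The promoters of the 5 lower genes are shown because these genes were called in the same direction and because Rb acts through E2F factors on promoters. Each is the stretch just before the transcript start in RefSeq (GRCm38.p6), read 5′ to 3′ on the strand of the gene, with searched words in capitals. Chaf1a is at chr17:56040296-56040415 on the plus strand, Chaf1b at chr16:93883781-93883900 on the plus strand, Nasp at chr4:116627952-116628071 on the minus strand and Slbp at chr5:33652575-33652694 on the minus strand, 120 bases each. For Asf1b only 30 bases are given, chr8:83955664-83955693 on the plus strand, a shorter stretch because the whole upstream window, these bases included, lies within annotated exons of the gene itself. The Slbp stretch lies within an exon of Gm10459 on the opposite strand.
Chaf1a: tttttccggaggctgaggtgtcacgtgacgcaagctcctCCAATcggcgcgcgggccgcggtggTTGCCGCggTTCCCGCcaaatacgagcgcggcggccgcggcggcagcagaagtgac
Chaf1b: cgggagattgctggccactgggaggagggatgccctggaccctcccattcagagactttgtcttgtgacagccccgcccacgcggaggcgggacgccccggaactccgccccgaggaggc
Nasp: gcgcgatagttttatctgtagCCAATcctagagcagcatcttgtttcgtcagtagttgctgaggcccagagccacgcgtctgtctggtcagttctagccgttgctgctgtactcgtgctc
Slbp: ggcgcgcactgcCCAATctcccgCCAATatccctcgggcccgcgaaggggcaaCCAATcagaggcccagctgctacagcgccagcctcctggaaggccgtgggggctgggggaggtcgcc
Asf1b: aaggcggagccggctaTTTGAAgggagcgc

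Words were searched on both strands of the 250 bases before the start, in all 8 genes and in 32851 RefSeq promoters. The words were chosen after the promoters had been seen, and a match is a description of letters, not of a bound site. The E2F words of 8 letters, TTTCCCGC, TTTGGCGC, TTTCGCGC and TTTGCCGC, were in 0 of the 8 genes and in 1.86% of all promoters. The same words shortened to 7 letters by leaving off the first T, which overlap the longer ones, were in 2 of 8 genes and in 7.89% of all promoters. Chaf1a had a pair of them, from -56 to -50 and from -47 to -41 bases relative to the start, and Chaf1b had 1 on the minus strand from -227 to -221, outside the stretch shown. TTTGAA, the core of the cell cycle element called CHR, was in Asf1b (from -14 to -9) and in Nasp (from -130 to -125, outside the stretch shown), and in 16.0% of all promoters. CCAAT was in 6 of 8 genes, with 4 copies in Asf1b and 3 in Slbp, and in 33.8% of all promoters. Chaf1b and Hira had none.

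Both large subunits of CAF-1, the replication-coupled route, were lower in TKO retinae. Chaf1a, which encodes the subunit that binds PCNA at the fork, had 198, 215 and 258 normalized counts across TKO replicates 1, 2 and 3, against 542, 549 and 391 across DKO replicates 1, 2 and 3. Its highest TKO library was well under its lowest DKO library. The means were 224 ± 30.6 and 494 ± 89.2 (SD, n = 3), a 2.21-fold lower level in TKO (95% interval 1.70 to 2.87). On the log2 scale this was -1.14 (SE 0.164, adjusted p = 0.00706, edgeR). Chaf1b, which encodes the WD-repeat subunit of CAF-1, had 37.8, 70.5 and 117 normalized counts across TKO replicates 1, 2 and 3, against 486, 432 and 269 across DKO replicates. The groups did not overlap, although the TKO libraries spread widely around their mean of 75.0 ± 39.6, against 396 ± 113 in DKO. The level was 5.29-fold lower in TKO (95% interval 2.95 to 9.51), or -2.40 on the log2 scale (SE 0.369, adjusted p = 0.00766, edgeR). It was the largest change among the 8 genes, and 1.81% of all genes tested had a lower log2 fold change.

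The paralogs of ASF1, which take H3 and H4 to both deposition routes, differed in their calls, and the difference itself is given with the ratios after the levels. Asf1b, the paralog known to be expressed mainly in dividing cells, had 64.2, 165 and 169 normalized counts across TKO replicates 1, 2 and 3, against 453, 394 and 276 across DKO replicates. All TKO libraries were under all DKO libraries, and TKO replicate 1 lay apart from the other TKO libraries. The means of 133 ± 59.5 and 374 ± 89.8 gave a 2.81-fold lower level in TKO (95% interval 1.65 to 4.79) and a log2 fold change of -1.49 (SE 0.336, adjusted p = 0.0217, edgeR). Asf1a, the more widely expressed paralog, had 279.8, 302 and 298 normalized counts across TKO replicates 1, 2 and 3, against 376, 348 and 316 across DKO replicates. These groups also did not overlap, but the distance between the closest libraries was small. The means were 293 ± 11.9 and 347 ± 30.3, and the log2 fold change of -0.24 (SE 0.109, 95% interval -0.49 to 0.0073) did not pass the test (adjusted p = 0.161, edgeR).

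Of the genes for the first handling of new H3 and H4, the chaperone gene changed and the acetyltransferase gene did not pass. Nasp, which encodes the chaperone that holds the soluble H3-H4 reserve, had 722, 699.9 and 1188 normalized counts across TKO replicates 1, 2 and 3, against 2722, 2359 and 1659 across DKO replicates. TKO replicate 3 and DKO replicate 3 lay nearest to each other, without overlap of the groups. The level was 2.58-fold lower in TKO (95% interval 1.77 to 3.78), a log2 fold change of -1.37 (SE 0.240, adjusted p = 0.0103, edgeR). Hat1, the cytoplasmic acetyltransferase for new histone H4, had 553, 539 and 528 normalized counts across TKO replicates 1, 2 and 3, against 714, 789.7 and 578 across DKO replicates. Its TKO libraries were close together and all lay under the DKO libraries. The log2 fold change was -0.36 (SE 0.119, 95% interval -0.64 to -0.089, adjusted p = 0.0727, edgeR).

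Slbp, the gene for the stem-loop binding protein, had 331, 417 and 493 normalized counts across TKO replicates 1, 2 and 3, against 1087, 1025 and 709.7 across DKO replicates. Here too the groups lay apart. The means were 414 ± 81.0 and 941 ± 202, a 2.27-fold lower level in TKO (95% interval 1.68 to 3.07), and the log2 fold change was -1.18 (SE 0.190, adjusted p = 0.00821, edgeR). Hira, the core subunit of the replication-independent route, was the only one of the 8 whose groups overlapped. It had 930.0, 882 and 819 normalized counts across TKO replicates 1, 2 and 3, against 1009, 932 and 907 across DKO replicates. The means of 877 ± 55.9 and 949 ± 53.0 gave a log2 fold change of -0.11 (SE 0.0836, 95% interval -0.31 to 0.077, adjusted p = 0.376, edgeR). A decrease of Hira to the size seen for Chaf1a lies outside this interval.

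**Figure D1:**
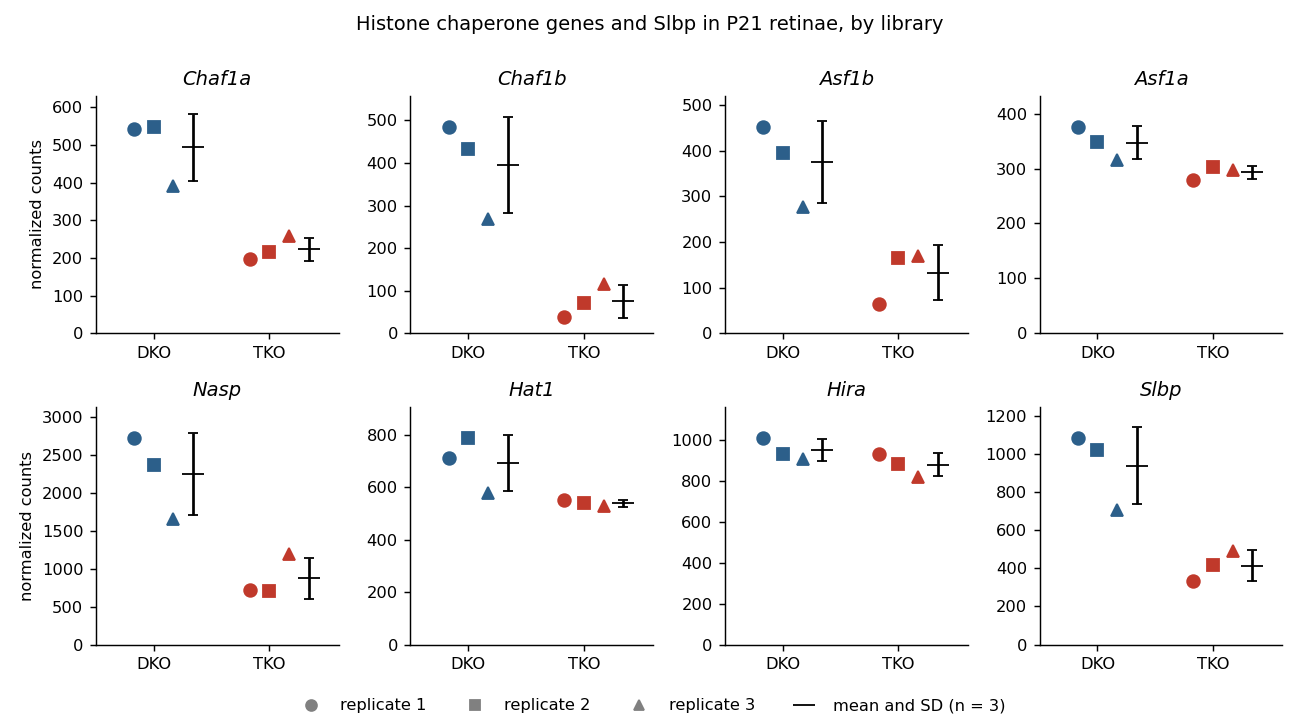
Normalized counts (y axis, from 0) of the 8 genes in each of the 3 DKO (blue) and 3 TKO (red) libraries, with the symbol giving the replicate and the bar the mean and SD (n = 3). The groups lie apart in every panel except that of Hira, by a narrow margin for Asf1a and Hat1, and DKO replicate 3 is the lowest DKO library in every panel.

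In 7 of the 8 genes every TKO library was under every DKO library, a pattern seen in 20.6% of all genes tested, with 18.0% showing the opposite. All 8 fitted log2 fold changes were below 0, as were 51.2% over all genes. The median over the 8 was -1.16, beside -0.011 over all genes tested. On adjusted p alone, 5 of the 8 passed in the lower direction and 0 in the higher, where 9.20% of all genes passed as lower and 7.35% as higher. At an unadjusted p under 0.05 edgeR gave 6 lower and 0 higher, where 17.8% of all genes were lower and 15.3% higher at that p. DESeq2 with the full rule called the same numbers as edgeR, 5 lower and 0 higher. By position among all genes, 4.82% had a lower log2 fold change than Asf1b, 5.55% than Nasp, 6.82% than Slbp and 7.24% than Chaf1a. For Hat1, Asf1a and Hira these shares were 22.8%, 28.9% and 39.2%.

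**Figure D2:**
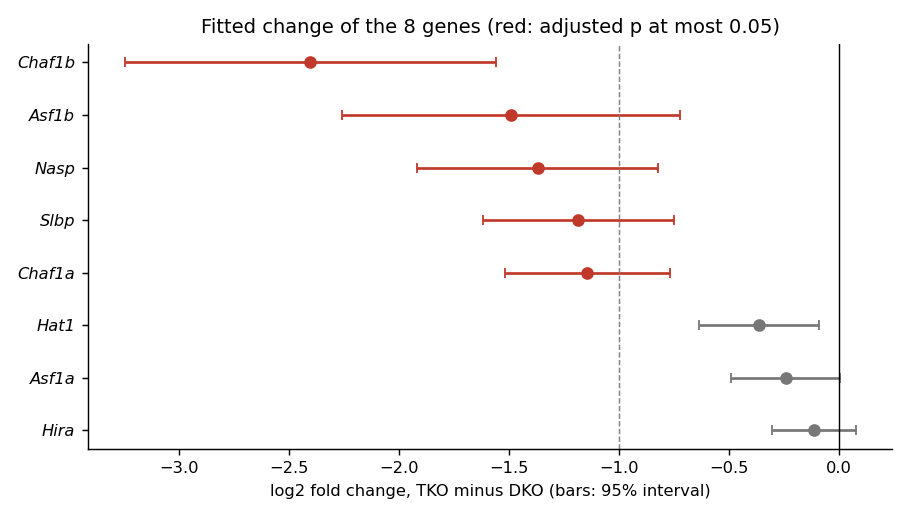
Fitted log2 fold change (x axis, TKO minus DKO) of each gene with its 95% interval, red where edgeR's adjusted p was at most 0.05. The solid line marks no change and the dashed line a log2 fold change of -1, which Chaf1b, Asf1b, Nasp, Slbp and Chaf1a passed.

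How far these calls rested on single retinae differed between the genes. With each retina left out in turn, Chaf1a, Chaf1b and Slbp passed in 6 of 6 fits, with adjusted p of at most 0.0404, 0.0429 and 0.0435 (edgeR). Nasp passed in 5 of 6, and its adjusted p was 0.0511 without TKO replicate 2. Asf1b passed in 3 of 6. Its adjusted p from edgeR rose to 0.0591 when TKO replicate 2 was left out, to 0.0826 when DKO replicate 1 was, and to 0.0801 when DKO replicate 2 was. The number called lower was therefore 3 without TKO replicate 2 and 4 without DKO replicate 1 or 2. Hat1 passed only without DKO replicate 3 (adjusted p = 0.0130, edgeR), while Asf1a and Hira passed in 0 of 6. The fitted log2 fold change stayed below 0 in every one of these fits for all 8 genes, from -2.85 to -2.09 for Chaf1b and from -0.16 to -0.063 for Hira.

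**Figure D3:**
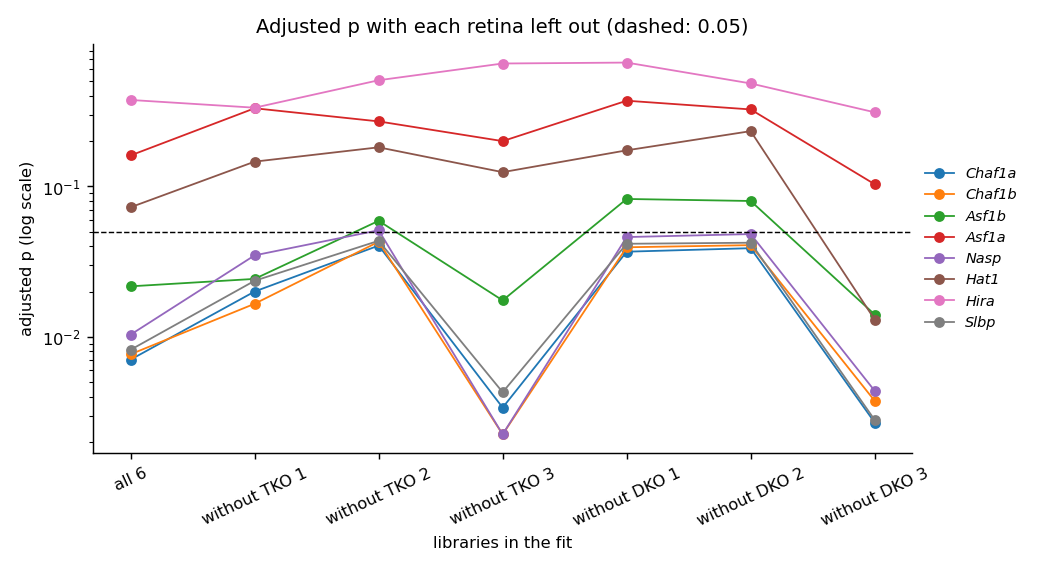
Adjusted p from edgeR (y axis, log scale) of each gene with all 6 libraries and with each retina left out (x axis), with a dashed line at 0.05. Lines join fits only to guide the eye: Chaf1a, Chaf1b and Slbp lie under the dashed line in all fits, Asf1b crosses it in 3 fits and Nasp in 1.

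To compare levels between genes, counts were also expressed per length (RPKM, with the union of annotated exons). In DKO libraries Nasp had the highest level, 23.6 ± 5.68 RPKM, followed by Hat1 at 19.0 ± 2.94, a difference within their spread. Asf1b (12.7 ± 3.04), Slbp (12.2 ± 2.63) and Hira (12.1 ± 0.674) came next at levels within the spread of each other. Asf1a (7.54 ± 0.657) and Chaf1b (6.68 ± 1.91) also did not differ beyond their spread, and Chaf1a was lowest at 4.41 ± 0.796 RPKM. The order differed in TKO libraries, where Hat1 (14.8 ± 0.344 RPKM) and Hira (11.2 ± 0.711) had the highest levels and Nasp stood at 9.15 ± 2.90. Below them came Asf1a (6.37 ± 0.258), Slbp (5.38 ± 1.05) and Asf1b (4.49 ± 2.01), and each neighbour from Hira to Asf1b lay within the larger SD of the pair. Chaf1a (2.00 ± 0.274) and Chaf1b (1.27 ± 0.668) were last. Chaf1b thus stood above Chaf1a in DKO and below it in TKO libraries on the RPKM scale. The place of Chaf1a in DKO depends on the exon lengths used. They were 8854 bases for Chaf1a, of which 4648 are shared with Ubxn6, and 4681 bases for Chaf1b. In counts Chaf1b was below Chaf1a in DKO libraries too, with ratios of 0.896, 0.788 and 0.687 in replicates 1, 2 and 3.

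Ratios taken within a library do not depend on how libraries are scaled to each other. The count ratio of Asf1b to Asf1a was 0.230, 0.547 and 0.568 in TKO replicates 1, 2 and 3 and 1.20, 1.13 and 0.874 in DKO replicates 1, 2 and 3. Asf1b thus had fewer counts than Asf1a in all TKO libraries, and more in DKO replicates 1 and 2. On the log2 scale the means were -1.27 ± 0.735 and 0.083 ± 0.244, a difference (TKO minus DKO) of -1.35. The log2 ratio of Chaf1b to Chaf1a was -2.37, -1.60 and -1.14 in TKO and -0.16, -0.34 and -0.54 in DKO libraries, a difference of -1.36. The log2 ratio of Chaf1a to Hira, one gene from each deposition route, was -2.23, -2.04 and -1.66 in TKO and -0.90, -0.76 and -1.21 in DKO libraries, a difference of -1.02. In all 3 ratios the groups lay apart, and the exact permutation test (two-sided, n = 3 each) gave p = 0.1 for each and 0.1 after adjustment over the 3, the smallest value that 3 retinae against 3 allow.

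**Figure D4:**
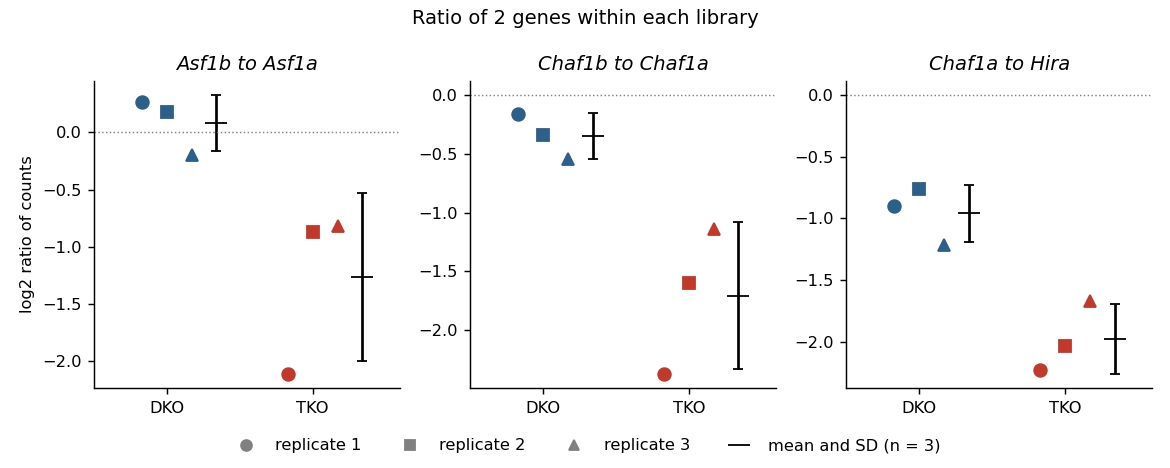
Log2 ratio of the counts of 2 genes within each library (y axis), for 3 pairs, in DKO (blue) and TKO (red) retinae, with the mean and SD (n = 3). Every TKO library lies under every DKO library in all 3 panels, and the dotted line marks equal counts.

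The wider pathway was read from hand-written lists of genes, described by counts and medians. The background for every list is the share over all genes tested. It was 4.38% called lower and 1.97% called higher, and 9.20% and 7.35% on adjusted p alone. Partners of CAF-1, ASF1 and HIRA had 0 of 9 called in either direction, and their median log2 fold change was 0.15. At an unadjusted p of 0.05 edgeR gave 2 lower and 4 higher, beside 17.8% and 15.3% of all genes, and DESeq2 called 0. Rbbp4, the third subunit of CAF-1 and shared with other chromatin complexes, had 2862 ± 67.9 normalized counts across TKO libraries, against 3297 ± 189 across DKO libraries (log2 fold change -0.20, adjusted p = 0.114, edgeR). Its paralog Rbbp7, a partner of HAT1, was lower at 1598 ± 129 against 2143 ± 112 (log2 fold change -0.42, adjusted p = 0.0162, edgeR). Cdan1, which encodes the ASF1 partner codanin, was higher at 833 against 676 (log2 fold change 0.30, adjusted p = 0.0438, edgeR). Ubn1, a subunit of the HIRA complex, had a log2 fold change of 0.15 (adjusted p = 0.335, edgeR). Its paralog Ubn2, named after its value was seen, had the largest value of the list, 0.69, with means of 1572 normalized counts over TKO and 976 over DKO libraries (SE 0.218, adjusted p = 0.0646, edgeR), and its groups overlapped.

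Among 12 other chaperones of H3-H4 and factors that load the centromeric H3 variant CENP-A, 5 were called lower and 0 higher, with a median log2 fold change of -0.73. The 5 became 2 when TKO replicate 2 was left out and 3 when either of DKO replicates 1 and 2 was. The 5 fall into factors of CENP-A loading and factors tied to the replication fork. Oip5 (log2 fold change -2.57) and Mis18a (-1.54), of the complex that primes centromeres for CENP-A, were lower, and Oip5 was near the lower limit of the counts with 6.06 normalized counts in TKO. Mcm2, a helicase subunit that also binds H3-H4, fell from 1293 ± 239 in DKO to 432 ± 204 normalized counts in TKO (log2 fold change -1.59, adjusted p = 0.0126, edgeR). Mms22l, a partner of TONSL at forks, had 134 and 35.3 (log2 fold change -1.92, adjusted p = 0.0103, edgeR). Mis18a, Mcm2 and Mms22l are named because they were called, after their values were seen. Of the most abundant genes of the list, Dnajc9, a heat shock co-chaperone of H3-H4, was lower (log2 fold change -0.53, adjusted p = 0.0271, edgeR), and the values for Atrx and Supt6, which act with replacement H3 and during transcription, were -0.068 (adjusted p = 0.788) and 0.23 (adjusted p = 0.139).

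Of 16 chaperones of H2A-H2B, the FACT complex included, 0 were called, and the median of their log2 fold changes was -0.059. Anp32b, Ssrp1 and Npm1 passed on adjusted p alone as lower, with no gene passing as higher. At an unadjusted p of 0.05 edgeR gave 5 lower and 1 higher, beside 17.8% and 15.3% of all genes, and DESeq2 called 0. Anp32b, an acidic histone-binding protein, had 1360 normalized counts across TKO libraries, against 2157 across DKO libraries (log2 fold change -0.67, adjusted p = 0.0104, edgeR). Ssrp1, a FACT subunit, had 2369 and 3373 (log2 fold change -0.51, adjusted p = 0.0158, edgeR). The other FACT subunit, Supt16, had a log2 fold change of 0.25 (adjusted p = 0.124, edgeR). The most abundant genes of the list, Anp32e, Ncl and Nap1l1, had 0.28, -0.022 and -0.20, none past the threshold.

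Apart from Slbp, genes of histone mRNA processing and decay were near the background. Of 17 such genes, 0 were called, 0 passed on adjusted p alone in either direction, and the log2 fold changes ran from -0.45 to 0.40 with a median of -0.034. At an unadjusted p of 0.05 edgeR gave 2 lower and 1 higher, beside 17.8% and 15.3% of all genes. DESeq2's adjusted p passed for 0 lower and 1 higher. Lsm10 and Lsm11, subunits of the U7 particle that recognises histone pre-mRNA, had log2 fold changes of -0.18 and 0.15. Npat, the activator of histone genes, had -0.034 (adjusted p = 0.878, edgeR), and Casp8ap2, a partner needed for histone pre-mRNA processing, had -0.35 (adjusted p = 0.0774, edgeR). The most abundant genes were Srrt (-0.12), Sympk (0.16) and Zcchc6 (0.15), a cap-complex partner, a scaffold of the cleavage machinery and a uridylyltransferase. The difference between Slbp and this list was not tested.

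Replacement histones, whose mRNAs mostly carry poly(A) tails, split. Of 11 genes 3 were called lower and 7 passed as lower on adjusted p alone, with 0 higher in either count and a median log2 fold change of -0.60. Cenpa, the centromeric H3 variant, had 36.5 ± 9.94 normalized counts across TKO libraries, against 146 ± 36.9 across DKO libraries (log2 fold change -2.01, adjusted p = 0.00691, edgeR). H1fx, a linker histone, had 47.2 ± 25.1 and 126 ± 13.1 (log2 fold change -1.41, adjusted p = 0.0381, edgeR). H2afz, the gene of H2A.Z, had 936, 1169 and 1366 in TKO and 2885, 2855 and 1949 in DKO replicates 1, 2 and 3 (log2 fold change -1.15, adjusted p = 0.00821, edgeR), and is named because it was called. In contrast, H3f3b and H3f3a, which encode the replacement H3 that HIRA deposits, had log2 fold changes of -0.074 (adjusted p = 0.621) and -0.12 (adjusted p = 0.455, edgeR).

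Clustered histone genes, whose mRNAs mostly lack a poly(A) tail, had few counts in these libraries, which were made from poly(A) RNA. Of 68 rows, of which 1 is a pseudogene, 12 were at 0 in all libraries and 20 could be tested, and 12 of those 20 had a mean under 10 normalized counts. Among the 20, 0 were called lower and 1 higher. Hist1h1c, a linker histone gene, had 193, 168 and 98.2 normalized counts across TKO replicates 1, 2 and 3, against 53.6, 49.0 and 68.2 across DKO replicates (log2 fold change 1.43, adjusted p = 0.0129, edgeR). Hist1h2bc, an H2B gene, was higher by 0.74 on the log2 scale (379 ± 9.53 against 227 ± 43.7, adjusted p = 0.0142, edgeR). The other abundant rows, Hist3h2a and Hist2h2be, had log2 fold changes of 0.31 (adjusted p = 0.280) and -0.092 (adjusted p = 0.726, edgeR). The median over the 20 was 0.24, or 0.35 with the 5 genes at the floor of 3 counts in a group set to their bounds.

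**Figure D5:**
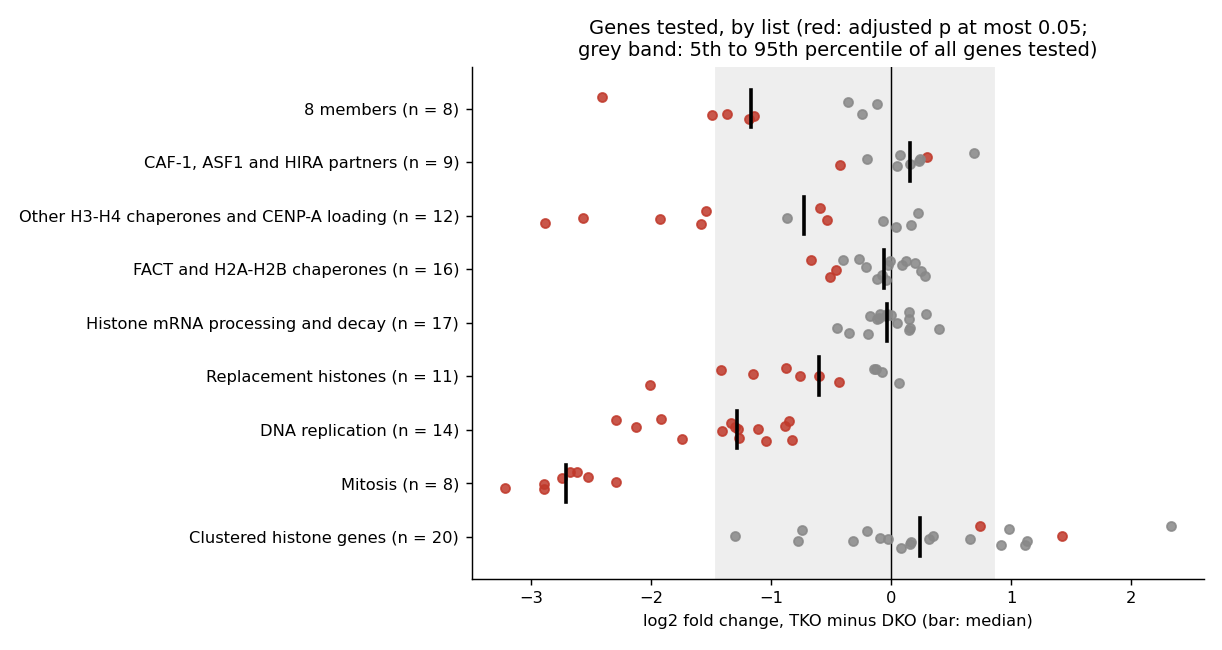
Log2 fold change (x axis, TKO minus DKO) of every tested gene of each list (rows), red where edgeR's adjusted p was at most 0.05, with a bar at the median and a grey band for the central part of all genes tested. By median, the 8 genes (-1.16) lie between the lists of other H3-H4 chaperones (-0.73) and DNA replication (-1.29), and the list of mRNA processing genes is centred near 0.

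DNA replication and mitosis genes give the scale of cell cycle transcripts in the same libraries. The study had already reported Pcna, Mcm4, Mki67 and Ccnb1 as lower in this comparison, and the lists were chosen with earlier results known. The numbers passing in these lists are therefore a description and not independent evidence. All 14 replication genes passed on adjusted p as lower and 11 were called, with a median log2 fold change of -1.29. The number called was 4 when TKO replicate 2 was left out and 6 when either of DKO replicates 1 and 2 was. Pcna, the sliding clamp that CAF-1 binds, fell from 2964 ± 647 in DKO to 1230 ± 284 normalized counts in TKO (log2 fold change -1.27, adjusted p = 0.00821, edgeR). Mcm6, Rrm1 and Rrm2, a helicase subunit and the subunits of ribonucleotide reductase, had log2 fold changes of -2.12, -1.30 and -2.29. Of the mitosis genes 8 of 8 were called lower, or 5 when any 1 of TKO replicate 2 and DKO replicates 1 and 2 was left out, and the median was -2.71. Top2a, a decatenating topoisomerase of dividing cells, had the largest change of that list (-3.21, adjusted p = 0.0078, edgeR), and Birc5, Cdk1 and Mki67 had -2.89, -2.68 and -2.52. Over all pathway lists 27 genes were called lower and 1 higher, where 4.38% and 1.97% of all genes tested were called. Leaving out TKO replicate 2 gave 13 lower, and leaving out either of DKO replicates 1 and 2 gave 16, with 0 called higher in each of these 3 fits. Without DKO replicate 3, 2 were called higher.

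Transcripts of several cell types moved beside these results. Summed over the mitosis list, TKO replicates 1, 2 and 3 had 35.6, 66.7 and 149 CPM (counts per 1e+06 of the TMM-scaled library size) and DKO replicates 1, 2 and 3 had 795, 579 and 368. Replicate 3 of each genotype was nearest to the other genotype on this sum, and in the 8 genes DKO replicate 3 was the lowest DKO library in all 8. All 8 rod markers were called higher, and they summed to 54128, 46157 and 26657 CPM in TKO and 9394, 9085 and 17328 CPM in DKO replicates 1, 2 and 3. None of the 8 was at 0 in any group. Of 6 Muller glia markers, led by Glul, 1 was called higher and 4 passed on adjusted p (sums of 4440, 4137 and 3749 against 2515, 2227 and 2337 CPM), and of 6 cone markers, led by Opn1sw, 2 were called higher (1340, 926 and 506 against 351, 402 and 578 CPM). In a whole retina, fewer cells of a type and less RNA per cell cannot be told apart, and the part of these cell types in the values of the 8 genes was not tested.

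Microglia markers went the other way. Of 7 genes 4 were called lower, and the sums were 114, 142 and 191 CPM in TKO against 288, 324 and 206 CPM in DKO libraries. Transcripts known from tissue next to the retina also moved. Of 7 lens markers 3 were called higher, led by Cryaa, with sums of 44.3, 238 and 37.4 CPM in TKO and 8.33, 8.31 and 8.19 CPM in DKO, where Lim2 was at 0. Of 6 markers of the retinal pigment epithelium 1 was called higher, Rpe65 (log2 fold change 3.03, adjusted p = 0.0324, edgeR), named after its value was seen. Its groups did not overlap. Rlbp1, also a Muller glia gene, was the most abundant of the 6, which summed to 785, 784 and 581 against 346, 413 and 461 CPM. Without Rlbp1 the other 5 summed to 75.0, 147 and 31.6 CPM in TKO against 7.07, 38.7 and 56.1 CPM in DKO libraries, where the groups overlapped. Markers of bipolar, amacrine, horizontal, ganglion and endothelial cells, among them Gad1, Calb1, Thy1 and Kdr, were detected in both genotypes. By edgeR 0 were called in each of these lists, and 1 bipolar and 1 endothelial marker passed on adjusted p as higher. DESeq2 called 1 of them, the horizontal cell gene Onecut1, as lower (log2 fold change -1.23, adjusted p = 0.00826; -1.24 and 0.0511 by edgeR), and its adjusted p passed for 2 amacrine markers as lower, Gad2 and Tfap2b, and 1 as higher, Chat. Of the 4 horizontal markers 3 had log2 fold changes below 0, and Calb1 was the 1 above it (0.092), with a median of -0.78. At an unadjusted p under 0.05 edgeR gave 2 of these 4 as lower and 0 as higher, beside 17.8% and 15.3% of all genes. The 4 hemoglobin genes searched for were at 0 in all libraries, and Alas2, the remaining blood marker, was called higher (log2 fold change 1.77). Markers of every class of retinal neuron searched for were thus present, as the labelled tissue requires. The part of lens, pigment epithelium and microglia in the values of the 8 genes was not tested.

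Other genes with a like course over the 6 libraries were found by the root-mean-square difference of centred log2 normalized counts, among 12902 genes with a mean of at least 50. For Slbp the nearest was H2afz, at 0.0286 log2 units, and Clic4 (0.0493) was also among the nearest 3. For Chaf1a they were Hmgb3 (0.0452), Cdk4 (0.0564) and Tspan6 (0.0572). Slbp and Chaf1a were each other's nearest of the 8 genes, with a difference of 0.0844. The genes nearest to Chaf1b were Fam111a (0.0873), Tcf19 (0.0912) and Gtse1 (0.0949), and its nearest of the 8, Asf1b, lay at 0.495. Asf1b was itself the hardest to match, with H1fx (0.184) and Gas2l3 (0.194) among its nearest. Nasp had Gpr56 (0.0501), Gmnn (0.0528) and Usp51 (0.0712), of which Gmnn encodes geminin, the inhibitor of replication licensing. For the genes that were not called they were Cmpk1 (0.0222), Fchsd2 (0.0246) and Tor1aip2 (0.0259) for Asf1a, Srsf12 (0.0440), S100b (0.0480) and Nuak1 (0.0499) for Hat1, and Dnajc10 (0.0210), Ssr4 (0.0246) and Trim33 (0.0248) for Hira. These distances are descriptions over libraries that share their scaling, and carry no test.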

How the data were processed

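The authors deposited raw read counts per gene symbol, unnormalized, 1 column per retina. The study's methods name STAR and HTSeq on GRCm38, with reads of up to 3 alignments kept, while the submitters' processing notes name TopHat2, featureCounts and DESeq2 with mm10 and GRCm38; which of these made the table is not settled here. The libraries were made with a stranded kit that selects poly(A) RNA.

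Groups and replicate numbers came from the sample labels. Genes with a sum of counts under 10 were removed. The quasi-likelihood F test of edgeR 4.0.16 (R 4.3.3) was then fitted to all 6 libraries with TMM scaling and no covariates, with Benjamini-Hochberg adjustment over all 16904 genes. The mean count of the call rule used DESeq2 size factors. Standard errors were derived from the log2 fold change and its F statistic, and 95% intervals use the t distribution of the fit. Ratios added 0.5 counts to both genes on the log2 scale. RPKM used effective library sizes. The test was checked on simulated counts. Pairs of replicates were further apart than sampling noise allows, with 8.97 to 26.6 as chi-square over its degrees of freedom. All 6 columns were used.

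Genes named were the 8 members, Hells, Rb1 and Rbl1, of each pathway list the 3 with the largest mean count and the 2 with the largest change among those that passed on adjusted p with groups apart, the most abundant gene of each marker list, and the 3 most alike genes per member. Others named, such as called genes outside this rule, were chosen after their values were seen. A few genes under this rule are not reported here. The members and lists were chosen with earlier results of these data known. Alternatives were DESeq2 1.42.0, other scalings, filters, dispersion estimates and thresholds, a fit with each retina left out, a replicate block, and a pseudocount of 1 for ratios. Scaling without the members and rod markers was added after seeing the data. Promoter sequences came from RefSeq (GRCm38.p6), and all 8 symbols matched.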

Additional observations from a re-analysis of the deposited data

How the results depend on the processing

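The replicate numbers did not pair the libraries, with correlations of same-numbered deviations of 0.052, -0.045 and -0.16. With the replicate number as a block, 0 of the 8 genes were called lower (adjusted p = 0.0566 for Chaf1a, 0.0599 for Chaf1b, 0.0834 for Asf1b, 0.0640 for Nasp and 0.0599 for Slbp, edgeR; 6 at an unadjusted p of 0.05), with log2 fold changes of -1.14, -2.44, -1.54, -1.39 and -1.18 in that order, and 0 pathway genes were called lower and 0 higher (44 and 12 at an unadjusted p of 0.05). Over all genes that fit called 75 lower and 15 higher. The block uses up degrees of freedom among 6 libraries. At an adjusted p of at most 0.01, 3 of the 8 genes, 13 pathway genes lower and 0 higher were called. Over all 16904 genes that threshold gave 292 lower and 129 higher. Without a minimum fold change 40 pathway genes were lower and 3 higher, beside 1496 and 1225 over all genes. With each retina left out, the 8 genes gave 3 to 5 calls, the pathway lists 13 to 29 lower and 0 to 2 higher. DESeq2, other scalings, other filters and robust dispersions kept 5 of the 8 genes called. With total counts alone, which moved the median of all genes from -0.011 to -0.17, Hat1 (-0.52, adjusted p = 0.0278) and Hira (-0.27, adjusted p = 0.0493) passed on adjusted p, and the cause was not tested. No log2 fold change of the 8 genes changed sign under any alternative. Low counts limit the precision of the clustered histone genes, Oip5 and Rbl1, among others. With 3 libraries per genotype the 3 ratios could not reach a p under 0.1.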
